A study of Mus musculus with 8 samples.

Results

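Mobp, Mbp, Cnp, Mag and Sirt2 are 5 genes of the myelin-forming cells of the brain, chosen by symbol from the 2372 genes of the authors' deposited table after it had been matched by position to the mouse gene annotation. They were picked for having fallen in the knockout cortex, so their difference from control is a description here and is given no test. The tissue was the medial prefrontal cortex (mPFC) of naive adult male mice on a C57Bl/6J background. The 4 CaKO mice carried CamK2A-Cre;Gpr158flox/flox, in which a promoter active in forebrain excitatory neurons drives Cre recombinase, and the 4 controls were littermates with Gpr158flox/flox and no Cre. All 8 animals therefore carried the floxed alleles, and oligodendrocytes, the cells that express these 5 genes most strongly, are not the cells that this promoter is used to target.

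Myelin is the membrane that oligodendrocytes wrap around axons. Its inner faces are pressed together by small basic proteins, Mbp and Mobp, whose mRNAs are carried into the cell's processes and translated there. Cnp keeps channels of cytoplasm open within the sheath, and Mag holds the innermost layer against the axon. Sirt2 is a deacetylase of the oligodendrocyte cytoplasm and of myelin, so it is a protein of the sheath's cytoplasm rather than of its membrane, and other brain cells also express it. In bulk tissue, fewer oligodendrocytes and less RNA per oligodendrocyte cannot be told apart.

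The stretches before the start sites of these genes are shown because the genes were lower together in CaKO and because SOX family factors, with Sox10 among them, and Myrf are known activators of myelin genes. The RefSeq table (GRCm38.p6) held an upstream sequence for 4 of the 5 genes. Each run is the 250 bases before the RefSeq start, 5′ to 3′ on the gene's strand, with capitals marking the SOX motifs ACAAAG and ACAATG and the Myrf motif CTGGCAC on either strand.
Mobp (chr9:120149492-120149741, plus strand): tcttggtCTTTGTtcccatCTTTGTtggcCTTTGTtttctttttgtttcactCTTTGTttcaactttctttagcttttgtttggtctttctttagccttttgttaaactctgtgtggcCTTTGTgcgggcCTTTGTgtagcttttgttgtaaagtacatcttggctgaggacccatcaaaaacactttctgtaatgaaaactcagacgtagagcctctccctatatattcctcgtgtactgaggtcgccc
Cnp (chr11:100574689-100574938, plus strand): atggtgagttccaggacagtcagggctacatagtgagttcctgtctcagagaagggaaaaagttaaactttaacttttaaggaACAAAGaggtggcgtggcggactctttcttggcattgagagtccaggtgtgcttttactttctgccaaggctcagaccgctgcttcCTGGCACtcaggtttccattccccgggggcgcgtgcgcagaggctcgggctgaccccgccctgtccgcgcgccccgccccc
Mag (chr7:30914864-30915113, minus strand): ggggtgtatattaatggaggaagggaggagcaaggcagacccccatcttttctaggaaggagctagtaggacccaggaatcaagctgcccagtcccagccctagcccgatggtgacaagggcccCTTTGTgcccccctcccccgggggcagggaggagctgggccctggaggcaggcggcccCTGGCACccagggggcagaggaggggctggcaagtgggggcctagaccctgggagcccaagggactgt
Sirt2 (chr7:28766502-28766751, plus strand): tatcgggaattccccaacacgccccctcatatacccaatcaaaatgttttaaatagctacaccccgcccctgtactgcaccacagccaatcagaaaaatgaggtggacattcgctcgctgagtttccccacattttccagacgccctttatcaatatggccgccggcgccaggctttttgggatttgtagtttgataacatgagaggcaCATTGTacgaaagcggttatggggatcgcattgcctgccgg
A SOX motif stood in all 4 stretches, against 25% of the 32536 upstream sequences of the table. Mobp held 6 matches to ACAAAG, each read on the opposite strand as CTTTGT, and 1 of the 32536 sequences, its own, held that many. Its matches began between 243 and 120 bases before the start. Cnp and Mag held 1 ACAAAG each, 167 and 126 bases before the start, and Sirt2 held 1 ACAATG (41 bases before). CTGGCAC occurred in Cnp (81 bases before the start) and Mag (68 bases before) and in 4.21% of all sequences. The motifs do not overlap one another in these stretches. CTGGTAC, the E-boxes CAGATG and CAGCTG, and TATAAA, present in 1.82%, 14.4%, 13.1% and 12.3% of all sequences, had no match in the 4. Base composition differed among them, with 40.8% G and C in Mobp, 57.2% in Cnp, 66% in Mag and 50% in Sirt2, against a median of 52.4% over all sequences. The gene models behind the deposited table, begin slightly before the RefSeq starts. A match describes the letters and is not evidence that a factor binds there.

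The values are normalised counts, that is, read counts divided by 1 factor per library, for the 4 CaKO libraries. The control libraries' own values were not used here, and the comparison with control is the fold change and p of the authors' deposited table. Over the table's genes the CaKO libraries held 2832931 to 3183638 reads, which is part of each library, and total depth is unknown. Of these genes, 0 overlapped Gpr158 on its strand. The highest p among them was 0.0499, so the deleted gene is not among the genes listed with a p below 0.05. Why Gpr158 has no value is not known here, and the genotype labels could not be checked against it. Nrgn, a marker of the excitatory neurons of cortex, was abundant at 9047 to 14513 normalised counts. The library of CaKO replicate 3 was the lowest for all 3 neuron markers that had a value (summed level 48938, against 64360 to 68623 in the others).

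All 5 genes fell in CaKO (adjusted p below 0.05, the authors' deposited table), where 1.97% of 12938 genes fell, 1.27% rose and 3.24% changed in either direction. Since this contrast chose the genes, nothing is read from that count. By size of the drop in the authors' deposited table, Mobp, Mbp and Sirt2 were at 60.3% to 63.3% of control, and Cnp and Mag at 78.2% and 80.3%. The intervals of Mobp, Mbp and Sirt2 overlap that of Cnp, and differences between genes were not tested. For each of the 5, the highest CaKO library lay below the control level implied by the fold change, between 63.3% of it for Mobp and 85.4% for Cnp. That level is computed from the fold change by which the genes were chosen, so nothing is read from this either. The spread of the control libraries is not known here. Intervals below are 95% intervals implied by the deposited p, taken as that of a two-sided normal test. The range given with an implied control level restates the interval of the fold change, with the CaKO mean held. It is not an interval of the control level itself. Whether the deposited fold changes were shrunken towards 0 is not given in the sources used here, and if so, the implied control levels, intervals and percentages of control would differ from those of the plain fold change.

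Mobp, a basic structural protein of compact central myelin (ENSMUSG00000032517.16, chromosome 9: 120149707 to 120181484, plus strand), had 4597, 4461, 4197 and 4246 normalised counts in CaKO replicates 1 to 4. The 4 libraries lay close together, the highest being 1.1 times the lowest. Their mean was 4375 ± 187 (SD, n = 4) in CaKO, against an implied control level of 7259 (6245 to 8438). By the authors' deposited table its log2 fold change was -0.73 (interval -0.95 to -0.51, adjusted p = 1.37e-07), the fourth smallest p of the table. On the same strand, Gm38642 covers 1.15% of its exons.

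Mbp, the basic protein that is needed to compact the sheath (ENSMUSG00000041607.17, chromosome 18: 82475146 to 82585637, plus strand), was the most abundant of the 5 with 11341, 11674, 9274 and 12805 normalised counts. Replicate 3 stood low and replicate 4 high, a spread of 1.38 times. The mean was 11273 ± 1473 (SD, n = 4) in CaKO, against an implied control level of 18099 (15218 to 21526). In the authors' deposited table its log2 fold change was -0.68 (interval -0.93 to -0.43, adjusted p = 5.38e-05). The Mbp locus also gives rise to golli transcripts, which neurons and immune cells can express, and a count per gene pools them with the myelin forms.

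Sirt2 (ENSMUSG00000015149.14, chromosome 7: 28766735 to 28788661, plus strand) had 1078, 897.7, 801.3 and 992 normalised counts. As for Mbp, the lowest library was replicate 3, but the highest was replicate 1. The mean was 942.4 ± 119.6 (SD, n = 4) in CaKO, against an implied control level of 1489 (1265 to 1752). The authors' deposited table put its log2 fold change at -0.66 (interval -0.89 to -0.42, adjusted p = 2.74e-05), so that its drop, to 63.3% of control, was close to that of Mbp at 62.3%. Nfkbib covers 0.834% of its exon sequence on the opposite strand.

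Cnp, the 2′,3′-cyclic nucleotide phosphodiesterase of non-compact myelin (ENSMUSG00000006782.16, chromosome 11: 100574904 to 100591729, plus strand), had 2560, 2264, 2285 and 2271 normalised counts. Replicate 1 stood above the other 3, which lay between 2264 and 2285. The mean was 2345 ± 143.5 (SD, n = 4) in CaKO, against an implied control level of 2999 (2642 to 3405). Its log2 fold change was -0.35 in the authors' deposited table (interval -0.54 to -0.17, adjusted p = 0.0122). Dnajc7 covers 4.23% of its exon sequence on the opposite strand.

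Mag, a sialic acid-binding adhesion protein of the membrane that faces the axon (ENSMUSG00000036634.15, chromosome 7: 30899176 to 30914873, minus strand), had 796, 741.4, 847 and 843 normalised counts. Here replicates 3 and 4 were the high libraries and replicate 2 the low one. The mean was 806.9 ± 49.4 (SD, n = 4) in CaKO, against an implied control level of 1005 (886.8 to 1139). In the authors' deposited table its log2 fold change was -0.32 (interval -0.50 to -0.14, adjusted p = 0.0279). Its call ended without CaKO replicate 1 (log2 fold change -0.31) or replicate 2 (-0.28), by an approximation from the deposited fold change and p. The calls of the other 4 genes held with each CaKO library left out, with log2 fold changes from -0.76 to -0.71 for Mobp, -0.75 to -0.60 for Mbp, -0.73 to -0.59 for Sirt2 and -0.40 to -0.34 for Cnp.

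**Figure D1:**
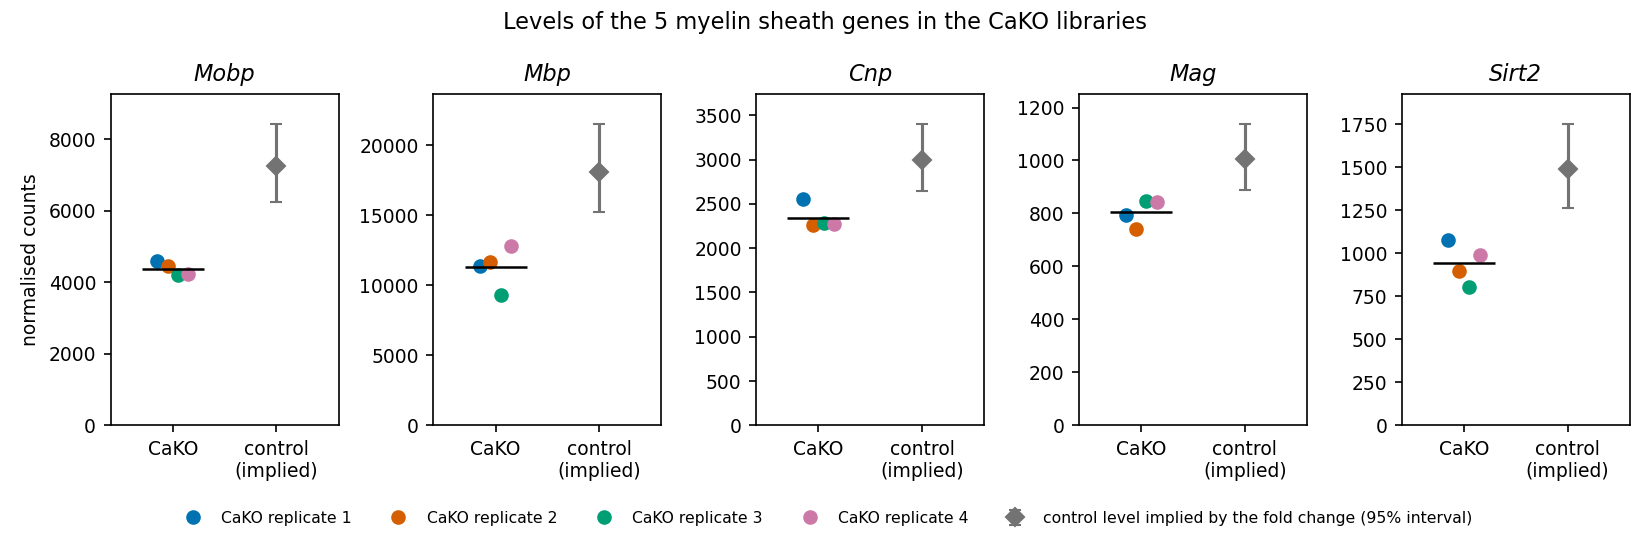
Normalised counts of the 5 genes, with 1 point per CaKO library and a line at the CaKO mean. Grey marks the control level implied by the deposited fold change. Its bar is the implied 95% interval of the fold change with the CaKO mean held, not an interval of the control level. Every CaKO point lies below the implied control level, from 63.3% of it for the highest Mobp library to 85.4% for the highest Cnp library. The choice of genes that had fallen largely sets this.

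**Figure D2:**
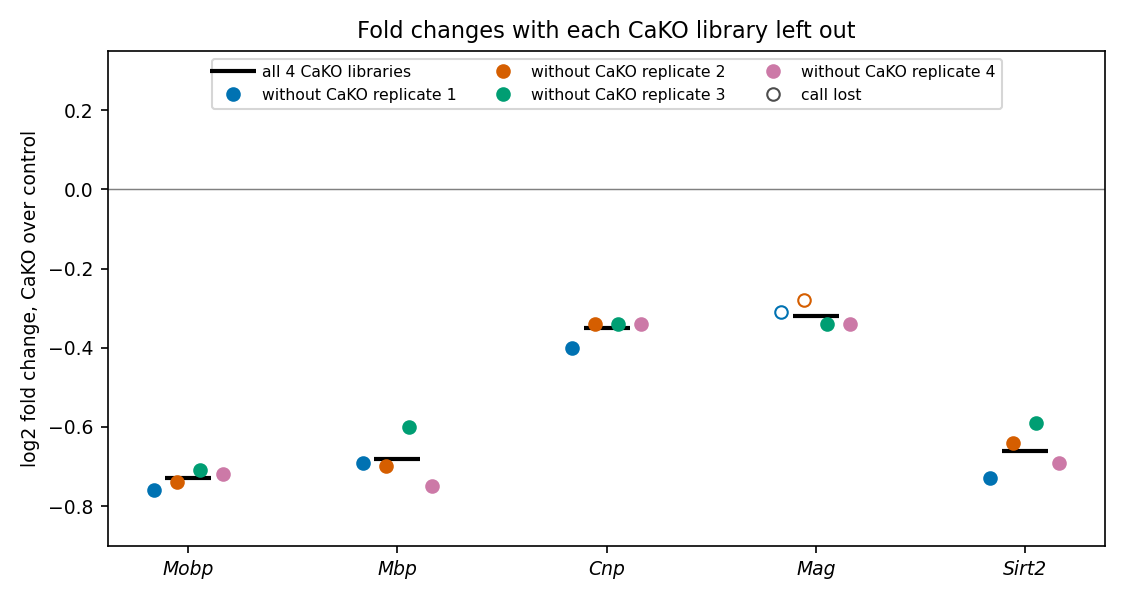
Log2 fold change of each gene, CaKO over control, with all 4 CaKO libraries (line) and without each in turn (points, open where the call was lost). The open points are Mag without replicate 1 (-0.31) and without replicate 2 (-0.28).

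Per kilobase of exon, the scale on which levels of different genes can be compared, Mbp stood first at 1342 ± 175 normalised counts per kilobase in CaKO (SD, n = 4). Cnp and Mobp followed at 644.4 ± 39.4 and 638.8 ± 27.3, and Mag and Sirt2 were lowest at 198.1 ± 12.1 and 187.2 ± 23.7 (SD, n = 4 each). The Mbp libraries, from 1104 to 1524, did not overlap those of Cnp (622.3 to 703.5), whereas Cnp overlapped Mobp (612.8 to 671.2), and Mag (182.1 to 208) overlapped Sirt2 (159.1 to 214.2). These neighbours in the order thus did not differ beyond their spread. The exon length is that of all annotated transcripts together, which lowers the level per kilobase of a gene with many forms.

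The 5 genes were not all high or low in the same CaKO mice. Mobp had the smallest coefficient of variation, 4.27%, where counting alone would give 1.52%. Of the 1003 genes of the table with a CaKO mean of at least 500, 8.18% had a smaller one. All 1003 have an unadjusted p below 0.05, so they do not stand for expressed genes at large. Cnp and Mag were at 6.12% each, and Mbp and Sirt2 at 13.1% and 12.7%, larger than in 69.8% and 67.7% of these genes. The highest library was replicate 1 for Mobp, Cnp and Sirt2, replicate 3 for Mag and replicate 4 for Mbp. The lowest was replicate 3 for Mobp, Mbp and Sirt2 and replicate 2 for Cnp and Mag. Some of these ranks rest on gaps no larger than counting variation (1.52% for Mobp, 2.08% for Cnp and 3.54% for Mag). The lowest libraries were 4197 and 4246 for Mobp and 2264 and 2271 for Cnp, and the highest 847 and 843 for Mag. Mbp per kilobase was 2.01, 2.13, 1.8 and 2.46 times Mobp in replicates 1 to 4, and Mag was 0.913, 1.02, 1.31 and 1.05 times Sirt2. Mobp was 0.954 to 1.05 times Cnp, the narrowest range of the 3 ratios.

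**Figure D3:**
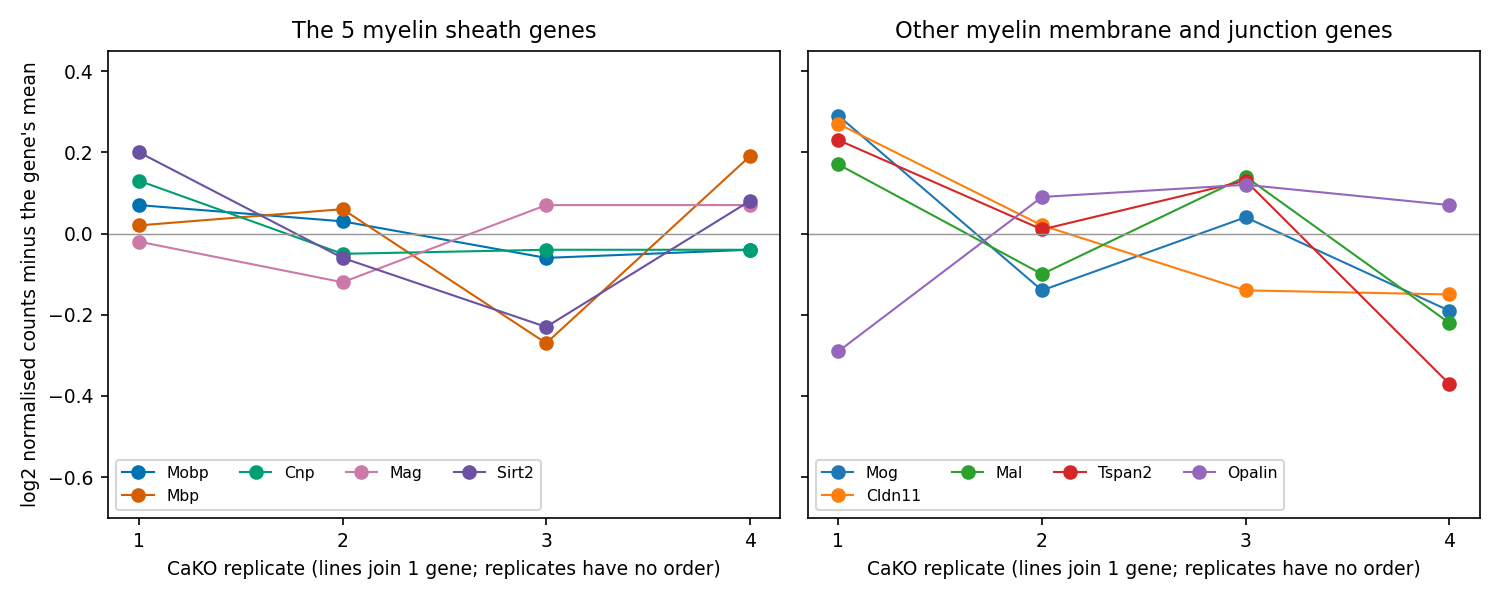
Log2 normalised counts of each gene in the 4 CaKO libraries, centred on the gene's own mean, for the 5 genes (left) and 5 other genes of myelin membrane and junctions (right). Mbp and Sirt2 dip in replicate 3 (-0.27 and -0.23), whereas Mog is high in replicate 1 (0.29) and Tspan2 low in replicate 4 (-0.37).

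Likeness of profile was measured as the root mean square distance between centred log2 values over the 4 CaKO libraries, among genes of the table with a CaKO mean of at least 500. Mobp and Cnp were the closest pair of the 5, at 0.0493, and Mbp and Mag the farthest, at 0.2052. Each gene had nearer genes outside the group than within it. The nearest were Trak2, Ptprk and Atp5f1 for Mobp (0.0157 to 0.0191), Chmp2a, Atp5g2 and Csnk1e for Mbp (0.0203 to 0.0217), and Polr3f, Arpp21 and Lin7a for Cnp (0.0118 to 0.0258). For Mag they were Cds2, Lrrtm3 and Prkce (0.0061 to 0.0194), for which the authors' deposited table gave positive log2 fold changes of 0.22, 0.20 and 0.21. For Sirt2 they were the astrocyte filament gene Gfap, Cacng3 and Dvl3 (0.0183 to 0.0320). With 4 libraries and 1002 genes compared, close profiles are easily found, and none is read as a link.

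The other genes of the myelin lists that had a value were nearly all lower too. A gene without a row in the table has no value here. Of the 57 genes in 3 lists besides the 5, 21 had a value, 20 lower and 1 higher at an unadjusted p below 0.05, where 8.68% of the 12938 genes were lower and 7.14% higher. The median log2 fold change of the 21 was -0.38, close to the -0.37 of all genes of the table that were lower. For the 2047 genes that entered the adjustment, lower and higher together, it was -0.22. Elovl1 and Fa2h were the 2 of the 57 that fell at an adjusted p below 0.05, where 1.97% of all genes fell. With the 5, which were chosen for having fallen, that makes 7 of 62. The lists were drawn up with earlier results known, so their counts are no independent evidence of direction.

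Among 24 genes of the myelin membrane and its junctions, 11 had a value, all were lower, and 4 fell (Mobp, Mbp, Cnp and Mag). These 4 were chosen for having fallen, and no other gene of this list fell. Over all 12938 genes, 8.68% were lower and 1.97% fell. Opalin, a sialylated membrane protein of mature oligodendrocytes, had 114.6, 149.3, 152.1 and 146.9 normalised counts in CaKO, with replicate 1 low. By the authors' deposited table it lay just outside the threshold (-0.49, adjusted p = 0.053), and Mag lay just inside at 0.0279. Mog, a surface protein of the outermost layer (-0.50, adjusted p = 0.0828), and Cldn11, which forms the tight junctions between layers (-0.43, adjusted p = 0.0853), did not pass in the authors' deposited table. Without replicate 1, the high library for both, their approximate log2 fold changes were -0.61 and -0.53, which passed. They did not pass without any other library, at -0.51 to -0.44 for Mog and -0.43 to -0.38 for Cldn11. Mal, a lipid-raft protein (-0.35), and the tetraspanin Tspan2 (-0.42) did not pass, with adjusted p of 0.0981 and 0.171 by the authors' deposited table. Replicate 1 was the highest of the 4 libraries in 8 of the 11 genes and replicate 4 the lowest in 5.

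Of 23 other genes of oligodendrocytes, 8 had a value and were lower, where 8.68% of all genes were lower and 1.97% fell. Sirt2 was the one that fell, and it was chosen for having fallen. Tubb4a, a tubulin that oligodendrocytes and neurons both use, was at -0.34 (adjusted p = 0.089) in the authors' deposited table. There the lysophospholipase D Enpp2 was at -0.28, the small heat shock protein Cryab at -0.42 and the septin Sept4 at -0.31. The lipocalin Apod was at -0.34, Carns1, which makes carnosine, at -0.50, and the actin regulator Gsn at -0.21, by the authors' deposited table. Without CaKO replicate 3 or 1 the 8 with a p below 0.05 became 4 and 5, and without replicate 4 Tubb4a passed as well (-0.40), though not without the others (-0.39 to -0.24). Hspb2 covers 17% of the exon sequence of Cryab on the opposite strand, and 2 other genes cover 29.7% and 40.3% of that of Carns1.

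Of 15 enzymes that make myelin lipids, 6 were lower, 1 was higher and 2 fell. Over all 12938 genes, 8.68% were lower, 7.14% higher and 1.97% fell. Elovl1, which extends very long saturated fatty acyl chains, had 114.6, 97.19, 98.42 and 110.5 normalised counts in CaKO. Its log2 fold change of -0.82 (adjusted p = 4.74e-05), taken from the authors' deposited table, was the most negative of the 26 myelin-list genes with a value, at 56.6% of control, and the call held without each CaKO library (-0.86 to -0.79). Fa2h, which hydroxylates the fatty acids of galactolipids, had 283.4, 290.6, 219.7 and 346 normalised counts and was at -0.51 in the authors' deposited table (adjusted p = 0.0283). Its call ended without replicate 3, at -0.40. Ugt8a, which makes galactosylceramide (-0.48), the ceramide synthase Cers2 (-0.34, which passed without replicate 1 at -0.40 and not without the others at -0.37 to -0.27), the desaturase Scd2 (-0.18) and the sterol demethylase Cyp51 (-0.22) did not pass in the authors' deposited table. Fdft1, of the sterol pathway, was at 0.17 by the authors' deposited table (adjusted p = 0.273) and had no p below 0.05 without replicate 3 or 4. Ctsb covers 18.3% of its exon sequence on the opposite strand.

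**Figure D4:**
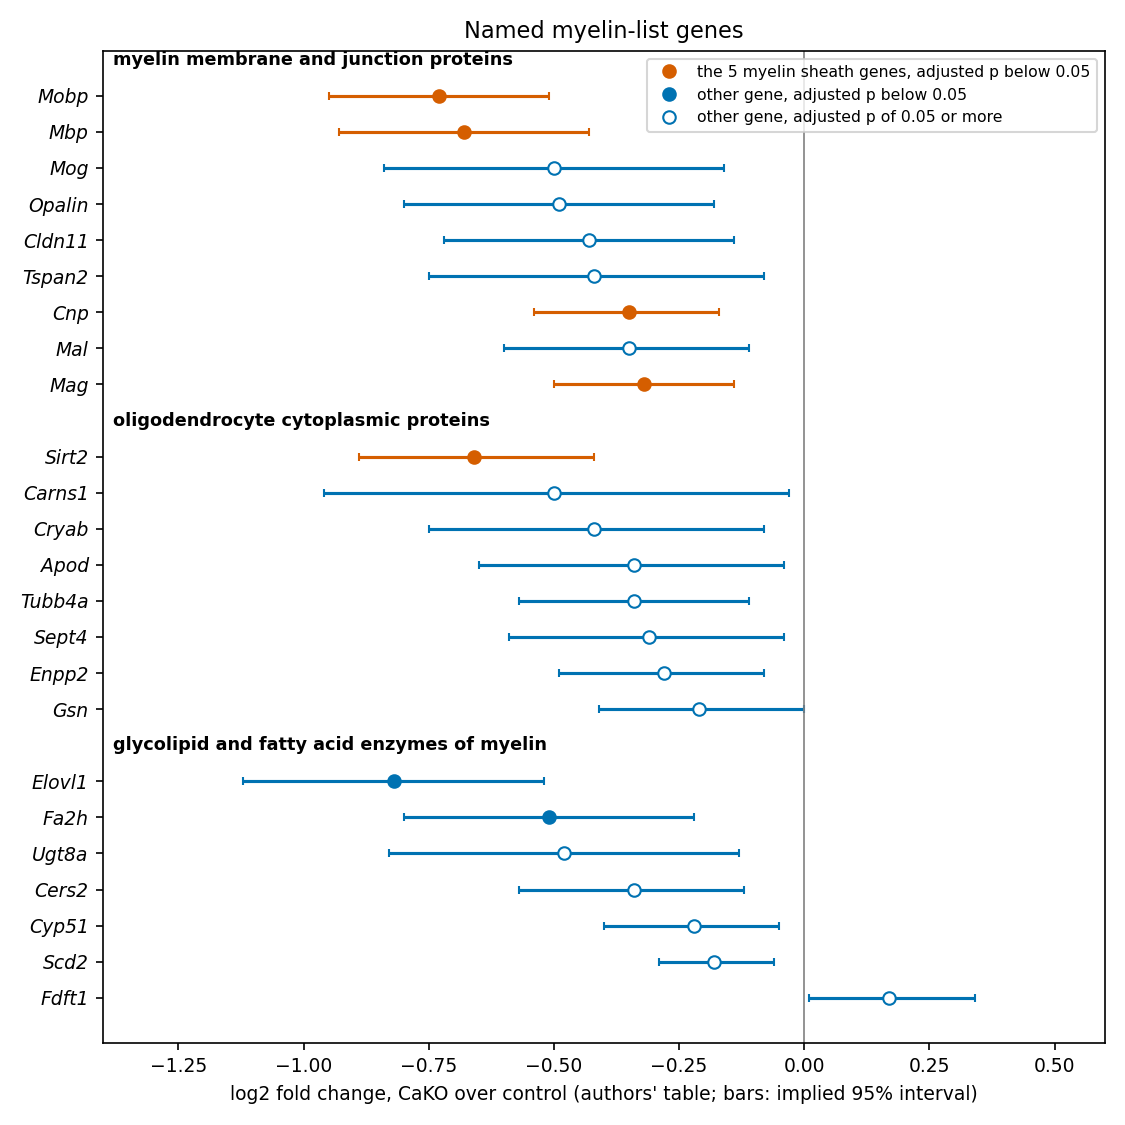
Log2 fold change, CaKO over control, in the authors' deposited table for 24 named myelin-list genes, with implied 95% intervals, filled where the adjusted p was below 0.05. All but Fdft1 (0.17) lie left of 0, with Elovl1 at -0.82, Mobp at -0.73, Mbp at -0.68 and Sirt2 at -0.66 farthest.

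**Figure D5:**
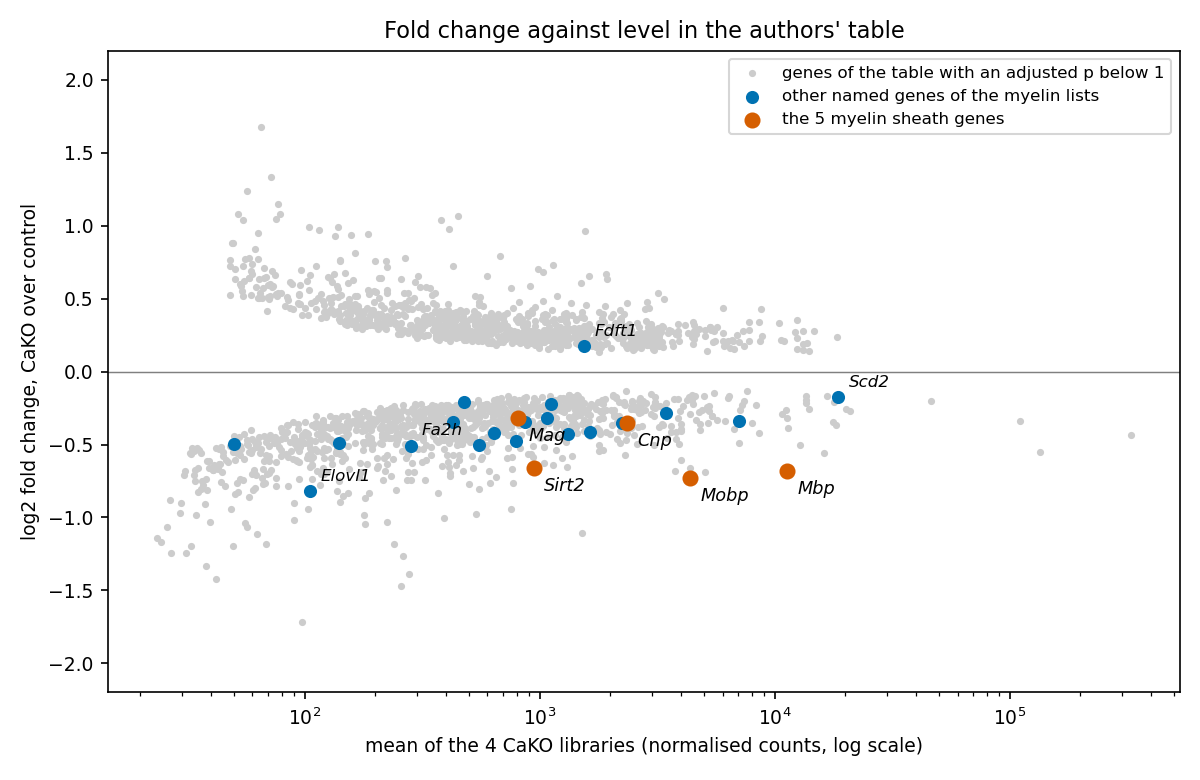
Log2 fold change, CaKO over control, against the CaKO mean on a log scale for the 2047 genes of the adjustment that have a value (grey), 19 other named myelin-list genes (blue) and the 5 genes (orange); 1 gene lies beyond the vertical axis. Mobp lies at -0.73 and Mbp at -0.68, and the empty band around 0 is where genes with a p of 0.05 or more have no value.

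Genes that control or partner the 5 gave fewer values. Over all 12938 genes, 8.68% were lower and 1.97% fell. Of 12 transcription factors of the lineage, 2 were lower: by the authors' deposited table Olig1 fell by 0.48 on the log2 scale (adjusted p = 0.0305) and Nkx6-2 was at -0.46 (adjusted p = 0.2). The call of Olig1 ended without CaKO replicate 2 (-0.43) or 3 (-0.37), and 1 of the 2 kept a p below 0.05 without replicate 1 or 3. Myrf and Sox10 have no value here. Among 9 genes of the transport and translation of myelin mRNAs, 1 was lower, near the share of 8.68% over all genes, and 0 changed at an adjusted p below 0.05. That gene, the kinase Fyn, which triggers Mbp translation, was at -0.22 by the authors' deposited table (adjusted p = 0.155).

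Where 8.68% of all genes were lower and 1.97% fell, 4 of 12 genes for receptors and axonal partners of Mag were lower and 1 fell. That gene, St3gal3, makes the sialylated glycans that Mag binds, and had 360.8, 391.8, 348.9 and 467.9 normalised counts in CaKO. Its log2 fold change was -0.47 (adjusted p = 0.0499) in the authors' deposited table, at the edge of the threshold, and its call ended without replicates 1, 2 or 3 (-0.43, -0.47 and -0.42). The Nogo receptors Rtn4r (-0.36) and Rtn4rl2 (-0.68), to which Mag binds on axons, and the co-receptor Tnfrsf19 (-0.19) did not pass in the authors' deposited table. The 4 became 2, 1 and 2 without replicates 1, 2 and 3. Of 11 proteins of the node and paranode, Nfasc and Ank3 were lower at -0.19 and -0.22 with no call in the authors' deposited table, and 0 had a p below 0.05 without replicate 2 or 3.

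Some markers of other cells in the tissue were also lower in CaKO, most had no value, and their part in the result was not tested. Over all 12938 genes, 8.68% were lower and 7.14% higher at an unadjusted p below 0.05, and 1.97% fell. Of 14 markers of oligodendrocyte precursors and newly formed oligodendrocytes, 7 were lower and 0 higher (median log2 fold change -0.59), and their summed level was 3408 to 4155 normalised counts in CaKO. Gpr17 (-0.76, adjusted p = 2.46e-06) and Bcas1 (-0.59, adjusted p = 0.00769), which mark newly forming oligodendrocytes, fell in the authors' deposited table, and their calls held without each CaKO library. Of 16 astrocyte markers, 4 were lower (median -0.35, summed level 10325 to 12908) and Atp1b2 and Aldoc fell in the authors' deposited table, calls that both ended without replicate 3 (-0.38 and -0.33), that of Aldoc also without replicate 1 (-0.28). Of 12 neuron markers, 3 were lower (median -0.28, summed level 48938 to 68623), and Nrgn fell by 0.50 on the log2 scale (adjusted p = 0.0238) in the authors' deposited table, a call that ended without replicate 3 (-0.37). Without that library 1 of the 3 kept a p below 0.05. Of 10 endothelial markers, 2 were lower (summed level 1707 to 1781, 1 without replicate 1) and Ly6c1, which has the near-identical copy Ly6c2, was at -0.39 and fell (adjusted p = 0.00481) by the authors' deposited table. Of 12 microglial markers, 1 was higher, near the share over all genes, with no call. That gene, Trem2, is named after its value was seen. It had 144 to 178 normalised counts in CaKO and a log2 fold change of 0.32 by the authors' deposited table, and had no p below 0.05 without replicate 1 or 2. In none of these lists was a marker with a value at 0 in every CaKO library.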

How the data were processed

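RNA from the mPFC of 4 CaKO and 4 control mice was poly-A selected and sequenced as paired-end reads, per the labels' protocols. Alignment to GRCm38 used TopHat2 2.0.12 and counting per gene HTSeq 0.6.1, and DESeq2 1.30.1 is among the tools, per the submitters' processing notes. The counting mode and use of strand are not given in the sources used here.

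All CaKO values deposited by the authors are a signal, read counts over 1 factor per library: 100.0% were whole multiples of 1 step (0.9941 to 1.0420) within 0.01, whatever the gene's length, although the table is named for FPKM. The log2 fold changes, p-values and adjusted p-values are the authors' own, as deposited, and all are CaKO over control, since the 18 genes whose CaKO libraries are all at 0 have negative values. The highest p-value is 0.0499. Benjamini-Hochberg adjustment over 12938 genes gave back the deposited adjusted values to within a relative difference of 0.00504, and the 325 genes with an adjusted p of 1 were treated as outside it.

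"Rose" and "fell" mean an adjusted p below 0.05 in the authors' table, and "lower" and "higher" an unadjusted one below 0.05. The limma fit planned for usable control columns was not run, as no values of control libraries were used here. Genes were matched to GENCODE M21 by chromosome, start, end and strand (2266 exactly, 89 by 80% mutual overlap, 17 not matched). The 5 genes and 13 gene lists were chosen with earlier results of these data known. Named genes were the 5, the list genes with a value, called markers, the 3 nearest profiles and the genes next to each. Near-identical copies came from BLAST 2.17.0 (98% identity over 200 bases and 50% of a transcript). To leave out a CaKO library, the control level was held at its implied value and the implied standard error widened for 3 libraries, a call needing p of at most 0.00162. The arithmetic was checked on simulated data with Python 3.11.15. Those data had plain ratios of means and the same dispersion for every gene, so how well the approximation follows the authors' fit was not tested. Some named genes are not reported here. Each library is 1 mouse, and intervals assume a normal test.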

Additional observations from a re-analysis of the deposited data

Results flagged for a closer look

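In the CaKO group, 3 of 60 genes examined had 1 library that stood apart from the other 3, with a gap to the nearest above Dixon's 95% critical value for 4 samples. Chance alone gives about 1 in 20. For Cnp, replicate 1 was high at 2560 normalised counts, against 2264 to 2285 in the others. For Opalin, replicate 1 was low at 114.6 normalised counts, against 146.9 to 152.1. For Polr3f, replicate 1 was high at 553.8 normalised counts, against 497.1 to 505. Polr3f was examined because its profile lay close to that of Cnp, so its flag is not independent of the flag of Cnp. Without replicate 1, the approximate log2 fold change of Cnp was -0.40, against -0.35 with it, and that of Opalin was -0.40, against -0.49 with it. That of Polr3f was 0.17, against 0.21 with it. Opalin did not pass the threshold either way.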

How the results depend on the processing

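The log2 fold changes of the 5 genes kept their direction and their side of the threshold in 38 of 40 alternatives, which left out a CaKO library, rescaled the CaKO libraries in 3 ways (those over genes outside the mitochondrial genome and by median ratio were chosen after seeing the data) or used the geometric mean. The exceptions were Mag without replicates 1 and 2 (range over the 4 libraries left out -0.34 to -0.28), where the smaller group also widens the error. Rescaling and the geometric mean moved the fold changes by little (Mobp -0.73 throughout, Mbp -0.69 to -0.68, Mag -0.32 to -0.31). The factors were close to 1 (0.944 to 1.073) and the control level was held, so these alternatives could hardly move a fold change. They are not read as a check of it. At an adjusted p below 0.01, 3 of the 5 remained. Of the myelin-list genes, 7 fell, among them the 5 chosen for having fallen, and 15 at an adjusted p below 0.1, because the threshold admits more. The number higher, 1, ranged from 0 to 1 with libraries left out. Over all results, 502 of 567 alternatives stayed the same and 0 reversed. The same means a fold change on its side of the threshold, a count near the main one, or a level within 1 SD. Leaving out 1 library cannot move a mean that far, and an uncalled gene stays the same by remaining uncalled. The tally is therefore not read as a measure of robustness. No paired analysis was possible because the values of the control libraries were not used here. The scaling of control libraries could not be varied, and genes with a p of 0.05 or more have no value.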

Other observations

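Of 10 genes of the sirtuin family and tubulin acetylation, 4 had a value, 1 lower and 3 higher. Over all 12938 genes, 8.68% were lower and 7.14% higher. The other sirtuins that had a value went in the opposite direction to Sirt2. The mitochondrial deacetylase Sirt3, the mitochondrial Sirt4 and the nuclear Sirt7 were all 3 higher at an unadjusted p below 0.05. The authors' deposited table put their log2 fold changes at 0.23, 0.32 and 0.27, with adjusted p of 0.289, 0.263 and 0.284, so 0 of the 3 rose. In CaKO they averaged 516.4 ± 40.2, 151.3 ± 8.39 and 365.9 ± 30.8 normalised counts (SD, n = 4 each). The 3 became 1, 0 and 1 without replicates 2, 3 and 4, and the difference between Sirt2 and the others was not tested.

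Over all 12938 genes, 8.68% were lower and 7.14% higher at an unadjusted p below 0.05. Of the 10 protein-coding genes next to the 5 on either side, 1 had a value, near that share. That gene, Dnajc7, overlaps Cnp on the opposite strand and averaged 1127 ± 116.9 normalised counts in CaKO (SD, n = 4), and its log2 fold change was -0.25 by the authors' deposited table (adjusted p = 0.216).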
